A study of Mus musculus with 8 samples.

Results

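The genes described here are 10 of the glutathione peroxidase and glutathione transferase families, chosen as the rows of the deposited count table whose Ensembl identifiers carry the symbols Gpx1, Gpx3, Gpx4, Gpx7, Gpx8, Gsta4, Gstm1, Gstp1, Gsto1 and Mgst1. They are 10 of 50686 identifiers, each had a single identifier, and all 10 passed the filter on low counts. RNA of mouse embryonic stem cells (mESCs) was sequenced in 8 libraries that combined 2 places of culture (Space, Ground), 2 genotypes (R9wt, R9del) and 2 lengths of culture (D1 for 1 day, D5 for 5 days). R9wt cells were wild type, and R9del cells were Rad9-/-, that is, deleted for Rad9 (now named Rad9a), which encodes a part of the checkpoint clamp that responds to DNA damage. Space cultures grew inside a satellite and were fixed in orbit with RNAlater, and Ground cultures grew in the same kind of payload without launch and return vibration. Each of the 8 combinations was 1 library, and neither the labels nor the methods say how many clones the R9del cells came from. The D1 and D5 cultures sat in different device groups with their own temperature control and were seeded with different numbers of cells, so duration and device group cannot be told apart. At D5 the R9del cultures were also seeded with more cells than the R9wt cultures, so at D5 genotype and seeding number cannot be told apart.

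Glutathione is the main small thiol of the cell. Most glutathione peroxidases use it to reduce hydrogen peroxide and lipid hydroperoxides, and glutathione S-transferases attach it to reactive compounds such as the aldehydes that lipid peroxidation leaves. GPX7 and GPX8 have little activity with glutathione and pass oxidizing equivalents mainly to protein disulfide isomerases. In several peroxidases the catalytic residue is selenocysteine, which is read from a UGA codon that elsewhere ends translation, and mouse embryos without GPX4 do not survive.

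The stretches below surround the catalytic codon of the 5 peroxidase genes and are shown because that codon divides them. They are 51 bases of coding sequence from the GENCODE transcripts of the mm9 genome, 5′ to 3′, with the codon in capitals.
Gpx1: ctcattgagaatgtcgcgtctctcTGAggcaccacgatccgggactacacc
Gpx3: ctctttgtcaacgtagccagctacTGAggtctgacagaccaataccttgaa
Gpx4: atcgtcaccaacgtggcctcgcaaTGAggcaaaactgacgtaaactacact
Gpx7: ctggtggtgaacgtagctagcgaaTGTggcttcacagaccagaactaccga
Gpx8: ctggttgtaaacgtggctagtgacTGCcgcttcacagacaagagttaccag
The codon was TGA in Gpx1 (codon 47, chr9:108241782-108241784, plus strand, exon 1), in Gpx3 (codon 73, chr11:54720758-54720760, plus strand, exon 2) and in Gpx4 (codon 73, chr10:79517482-79517484, plus strand, exon 3). It was a cysteine codon in Gpx7 (TGT, codon 56, chr4:108076035-108076037, minus strand, exon 2) and in Gpx8 (TGC, codon 79, chr13:113835869-113835871, minus strand, exon 2). Gpx1, Gpx3 and Gpx4 each held 1 in-frame TGA before the stop, and Gpx7 and Gpx8 held 0.

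The libraries held between 58238440 and 96416907 counts, and 3 counts, which a count of 0 cannot exclude on counting error alone, were worth 0.0335 to 0.0503 CPM (counts scaled to a common library total with edgeR's TMM factors). Rad9a, the check of genotype, lay between 70.3 and 93.4 CPM in the 4 R9wt libraries and between 20.8 and 28.6 CPM in the 4 R9del libraries. Reads on Rad9a were thus fewer but not absent in R9del, and the deleted part of the gene is not given in the sources used here. All 9 stem cell markers examined were detected in every library at 34.8 CPM or more, with Pou5f1 at 958 CPM or more. Of 11 fibroblast or feeder markers, Col3a1, Postn, Dcn, Lum and Fap did not exceed 0.235 CPM in any library, while Thy1 was at 11.8 to 38.7 CPM, Col1a1 at 3.85 to 10.4, Acta2 at 0.407 to 37.2, Tagln at 0.762 to 22.7, Col1a2 at 0.299 to 8.88 and Col6a1 at 0.198 to 4.55 CPM. Mitochondrial genes held 2.47% and 1.20% of counts in R9wt on the ground and 1.37% and 1.12% in space, with D1 first. In R9del they held 3.39% and 2.46% on the ground and 1.82% and 1.46% in space. The share was thus lower in space, higher in R9del and lower at D5 in every pair of libraries that differed in 1 condition. Its part in the values of the members was not tested. RNA came from whole cultures, so fewer cells of a type and less RNA per cell cannot be told apart. Nothing says that the 4 libraries of a group were separate cultures of the same condition. The p-values of the 4-against-4 comparisons below measure only the spread between libraries that also differ in the other 2 conditions. Fits with matched pairs as a block, additive covariates or an interaction take out effects of other conditions. Their p-values measure the spread that is left, which is not that between cultures of the same condition.

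**Figure D1:**
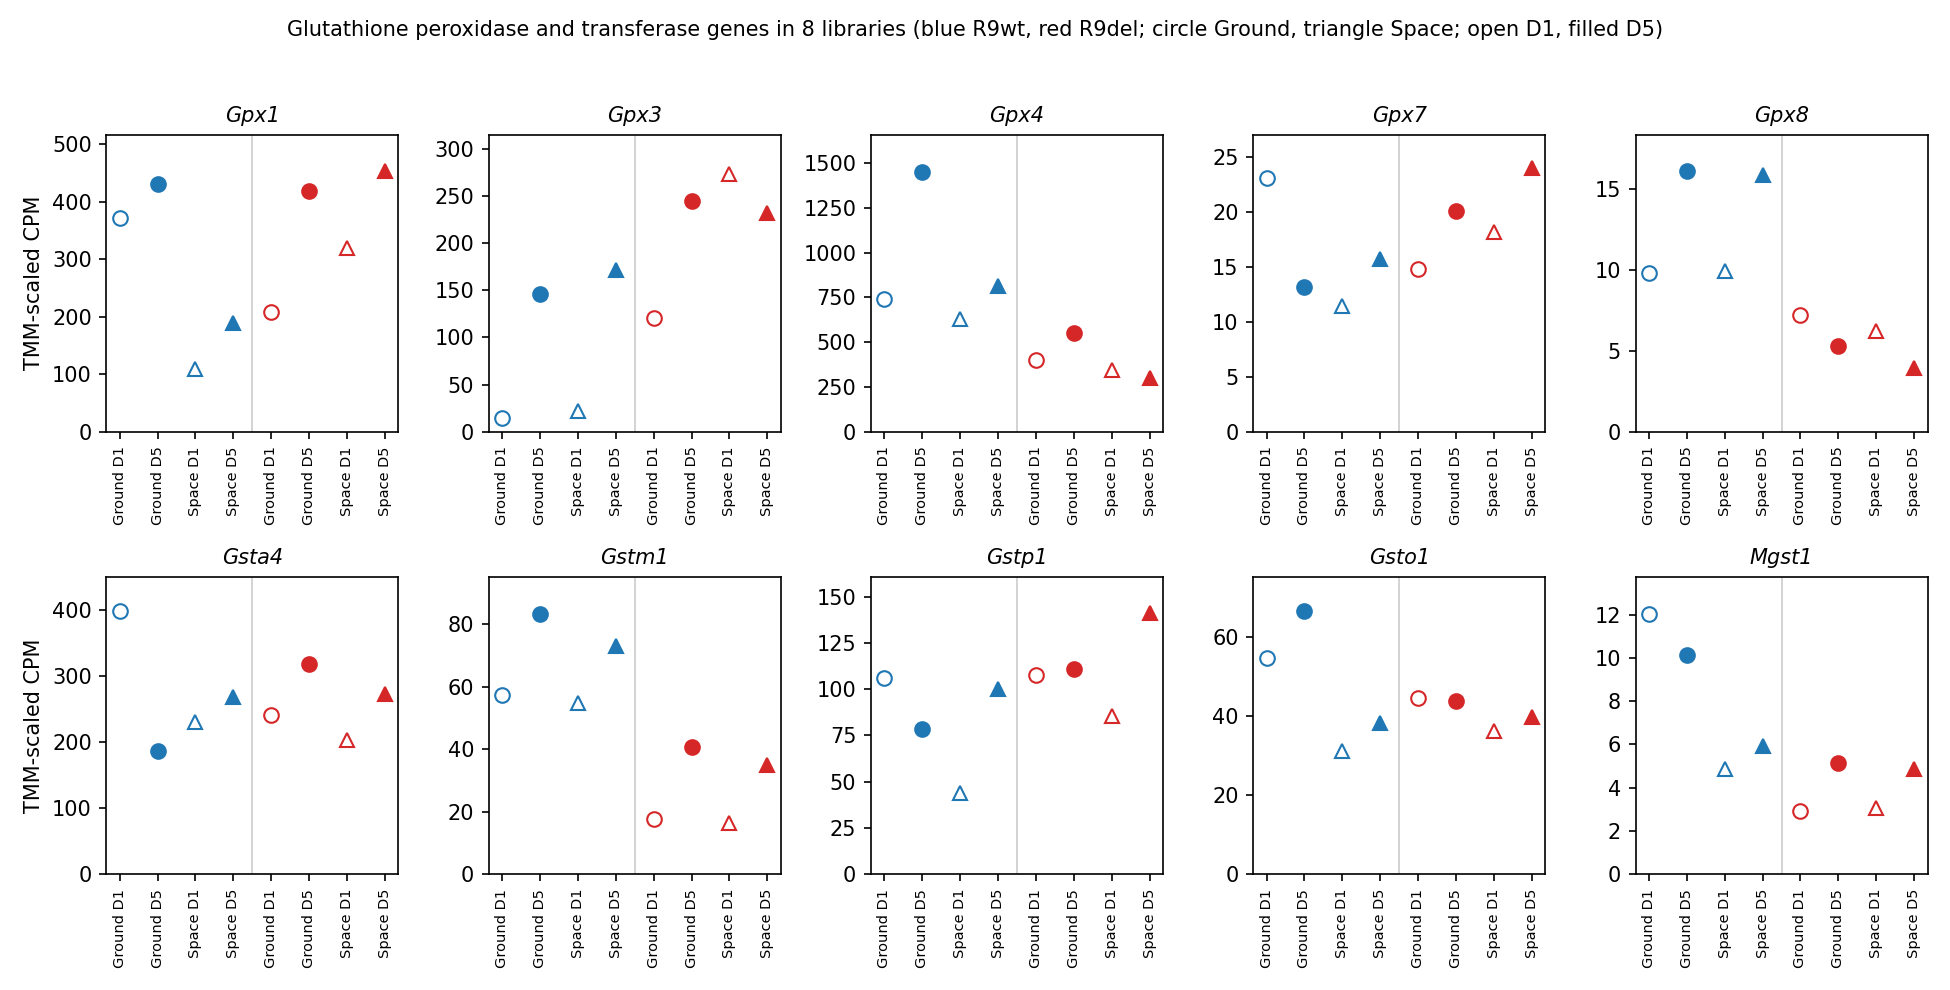
TMM-scaled CPM (vertical axes, from 0) of the 10 genes in the 8 libraries, with 1 point for each library. In Gpx4, Gpx8 and Gstm1 every R9del point (red) lies below every R9wt point (blue), as in 7.19% of all genes. Gpx3 stands at 14.4 and 21.8 CPM in the R9wt D1 libraries against 121 CPM or more in the other 6.

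Levels were compared between genes only per kilobase of exon. Gpx4 was at 391 ± 221 CPM per kb (SD, n = 8 libraries), Gpx1 at 369 ± 152 and Gsta4 at 277 ± 71.3. These highest genes did not differ beyond their spread: Gpx4 was above Gpx1 in 4 of 8 libraries, and Gpx1 above Gsta4 in 5 of 8. Gstp1 followed at 129 ± 37.7 CPM per kb and Gpx3 at 84.4 ± 54.0. Gsta4 exceeded Gstp1 in 8 of 8 libraries, and Gstp1 exceeded Gpx3 in 7 of 8. Below them came Gstm1 at 33.9 ± 17.4, Gsto1 at 22.6 ± 5.78, Gpx7 at 13.6 ± 3.53, Gpx8 at 9.14 ± 4.52 and Mgst1 at 3.04 ± 1.63 CPM per kb, with Gsto1 above Gpx7 and Gpx8 above Mgst1 in 8 of 8 libraries. The endoplasmic reticulum peroxidases Gpx7 and Gpx8 and the microsomal Mgst1 were thus the lowest of the group, and the cytosolic or broadly placed Gpx1, Gpx4 and Gsta4 the highest.

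The spread of a gene over the 8 libraries was taken as the SD of log2 CPM. Gpx3, which encodes a secreted peroxidase, had the largest at 1.64, above 97.5% of the 9732 genes whose mean was 10 CPM or more. Gstm1 followed at 0.88, above 85.4% of those genes. Gsto1 (0.35), Gsta4 (0.35) and Gpx7 (0.38) varied least, above 24.8%, 26.1% and 31.3% of them. The 3 genes whose log2 CPM was most like that of Gpx3 over the 8 libraries, among 9731 searched, were Pqlc3 (Pearson r = 0.98), Limk2 (r = 0.97) and Serpinb6c (r = 0.96), a description over libraries that share genotype and duration. Limk2, a LIM kinase, went from 73.7 CPM in Ground_R9wt_D1 to 319 CPM in Space_R9del_D1, the library where Gpx3 was also highest.

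The first question was which of these genes changed with deletion of Rad9. Gpx4, Gpx8 and Gstm1 were lower in every R9del library than in any R9wt library, and Mgst1 was lower in R9del in 4 of 4 pairs matched on location and duration. The group differences of the first 3 were 2.24-, 2.25- and 2.42-fold. Groups without overlap and with R9del lower made up 7.19% of all genes. None of the 3 passed an adjusted p of 0.05 with edgeR's quasi-likelihood test, which called 2.04% of 20473 genes in this comparison. DESeq2's Wald test and edgeR's exact test called all 3, and they called 10% and 7.13% of all genes.

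Gpx4, which reduces lipid hydroperoxides in membranes, was at 741 CPM (D1) and 1450 CPM (D5) in R9wt cells on the ground and at 627 CPM (D1) and 814 CPM (D5) in R9wt cells in space. In R9del it was at 403 CPM (D1) and 553 CPM (D5) on the ground and 344 CPM (D1) and 302 CPM (D5) in space. The highest R9del library was thus below the lowest R9wt library, and the R9wt D5 libraries were the highest of all. The log2 fold change was -1.16 (SE 0.30, adjusted p = 0.0764 by the quasi-likelihood test of edgeR). Without Ground_R9wt_D5 it was -0.87. With matched pairs entered as a block, its adjusted p was 0.0161. Of 1234 Gpx4 50-mers, 34.7% also occur elsewhere in the genome, mostly in an intergenic stretch of chromosome 10, and its most GC-rich window of 200 bases was 77% G and C.

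Gpx8, a peroxidase of the endoplasmic reticulum membrane, was at 9.78 CPM (D1) and 16.1 CPM (D5) in R9wt cells on the ground and at 9.93 CPM (D1) and 15.9 CPM (D5) in R9wt cells in space. The R9del values were 7.21 CPM (D1) and 5.30 CPM (D5) on the ground and 6.21 CPM (D1) and 3.96 CPM (D5) in space. The groups did not overlap, and the distance between them was wider at D5 (3.02- and 3.99-fold) than at D1 (1.36- and 1.60-fold), a difference that was not tested. The log2 fold change over all libraries was -1.17 (SE 0.32, adjusted p = 0.0863 by edgeR's quasi-likelihood test).

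Gstm1, a cytosolic transferase of the mu class, was at 57.5 CPM (D1) and 83.2 CPM (D5) in R9wt cells on the ground and at 54.8 CPM (D1) and 72.9 CPM (D5) in R9wt cells in space. In R9del it was at 17.7 CPM (D1) and 40.7 CPM (D5) on the ground and 16.4 CPM (D1) and 34.8 CPM (D5) in space. Space and Ground libraries of the same genotype and day lay close together, and genotype and day separated the values. The log2 fold change between genotypes was -1.28 (SE 0.33, adjusted p = 0.0779 by edgeR's quasi-likelihood test), with an adjusted p of 0.0151 when matched pairs were a block. Of its 50-mers 25.2% occur elsewhere, in part in Gstm3, whose coding sequence is 89.5% identical, so the 2 genes could have exchanged reads.

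Mgst1, a membrane transferase that also reduces lipid peroxides, was at 12.1 CPM (D1) and 10.1 CPM (D5) in R9wt cells on the ground and at 4.84 CPM (D1) and 5.93 CPM (D5) in R9wt cells in space. The R9del values were 2.90 CPM (D1) and 5.15 CPM (D5) on the ground and 3.04 CPM (D1) and 4.86 CPM (D5) in space. The groups overlapped, because Space_R9wt_D1 lay below 2 of the R9del libraries. The log2 fold change was -1.02 (SE 0.38, adjusted p = 0.177 by edgeR's quasi-likelihood test), and it was under 2-fold with matched pairs as a block (-0.97) or with library size alone as the scaling (-0.96).

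The thresholds of the study are a 2-fold difference and a p under 0.05, read here as unadjusted, which the study does not state. By them these 4 genes passed in the lower direction and 0 in the higher direction, where all genes gave 7.39% lower and 6.37% higher. With matched pairs as a block Gpx3 passed in the higher direction (8.45% of genes) and Mgst1 no longer passed. Groups that did not overlap with R9del lower were 3 of 10 against 7.19% of all genes. At an adjusted p under 0.05, DESeq2's Wald test called Gpx4, Gpx8 and Gstm1 (10% of all genes), edgeR's exact test called the same 3 (7.13%), and the fit in which matched pairs formed a block called Gpx4 and Gstm1 (8.46%). No marker of the 6 lists passed an adjusted p of 0.05 between genotypes, and their summed levels overlapped between the groups. In matched pairs, the sum of 9 primitive endoderm markers was higher in R9del in 4 of 4. With D1 first, it was 70.2 against 59.2 CPM and 109 against 108 CPM on the ground. In space it was 88.2 against 22.9 CPM and 363 against 204 CPM. On average only 5 of the 9 were higher in R9del. On the ground Amn was lower in R9del, at 7.86 against 19.4 CPM (D1) and 16.3 against 49.1 CPM (D5). In the D5 pairs the sum of 6 trophoblast markers was lower in R9del. It was 676 against 1697 CPM on the ground and 414 against 2507 CPM in space. In the D1 pairs it was higher, at 209 against 160 CPM and 283 against 164 CPM. Krt8 and Krt18 held most of this sum in every library. At D5 Hand1 was higher in R9del on the ground (63.3 against 14.4 CPM) and lower in space (33.7 against 113 CPM). The sum of 11 fibroblast markers was also lower in R9del at D5. It was 35.5 against 81.3 CPM on the ground and 46.3 against 93.5 CPM in space. In space at D5, Acta2 (1.59 against 37.2 CPM) and Tagln (1.66 against 22.7 CPM) were lower in R9del. Thy1 was higher in R9del in that pair (32.4 against 11.8 CPM) and lower on the ground (16.9 against 38.7 CPM). Over all libraries 4 of the 11 were higher in R9del on average. Whether these markers stand for such cells, and their part in the values of the members, was not tested.

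Gpx3 differed in the other direction. It was at 14.4 CPM (D1) and 145 CPM (D5) in R9wt cells on the ground and at 21.8 CPM (D1) and 171 CPM (D5) in R9wt cells in space. In R9del it was at 121 CPM (D1) and 245 CPM (D5) on the ground and 273 CPM (D1) and 232 CPM (D5) in space. R9del was higher in 4 of 4 matched pairs, by 8.38- and 12.5-fold at D1 and by 1.68- and 1.36-fold at D5. The groups overlapped, and the log2 fold change of 1.32 (SE 0.71, adjusted p = 0.334 by edgeR's quasi-likelihood test) became 1.99 (SE 0.57, adjusted p = 0.0667) with the matched pairs as a block.

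Gpx1, Gpx7, Gsta4, Gstp1 and Gsto1 had log2 fold changes between genotypes from -0.19 to 0.46 with an edgeR quasi-likelihood adjusted p of 0.413 or more. Gpx7, a peroxidase of the endoplasmic reticulum lumen, ranged from 11.5 CPM in Space_R9wt_D1 to 24.0 CPM in Space_R9del_D5. Gsta4, the transferase that takes up the lipid aldehyde 4-hydroxynonenal, ranged from 187 CPM in Ground_R9wt_D5 to 398 CPM in Ground_R9wt_D1, so its extremes were both R9wt ground libraries. Gstp1, the pi-class transferase, ranged from 43.9 CPM in Space_R9wt_D1 to 141 CPM in Space_R9del_D5 and was higher in R9del in 4 of 4 pairs, but its groups overlapped. Its coding sequence is 98.1% identical to that of Gstp2 and 79.9% of its 50-mers occur elsewhere, so its values are uncertain.

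**Figure D2:**
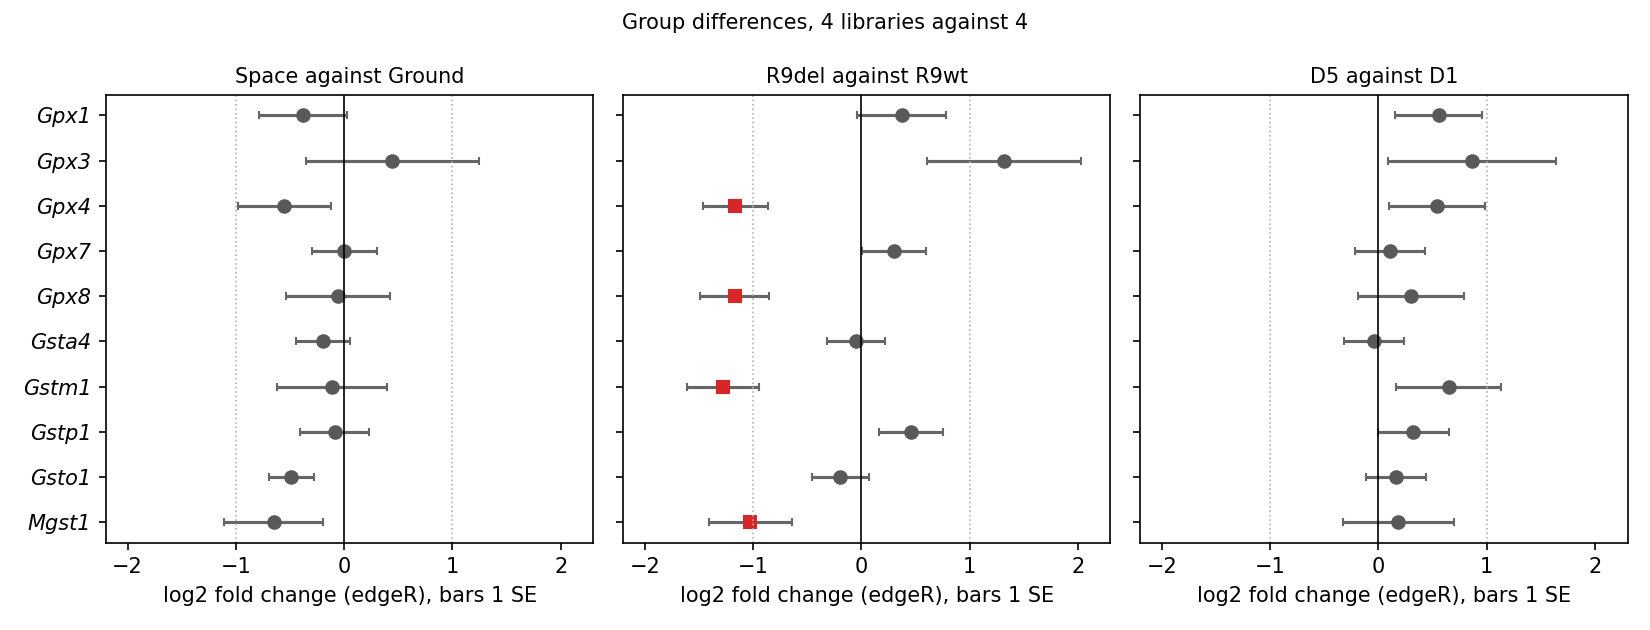
Log2 fold changes (horizontal axes) from edgeR's quasi-likelihood fit of 4 libraries against 4, with bars of 1 SE, for the 10 genes in the 3 group comparisons. Red squares mark a 2-fold difference with an unadjusted p under 0.05 (Gpx4, Gpx8, Gstm1 and Mgst1 in R9del against R9wt, at -1.16, -1.17, -1.28 and -1.02), and dotted lines mark a 2-fold difference.

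The promoters of the 3 genes whose genotype groups did not overlap are shown, as 300 bases from 250 before to 50 after a RefSeq start site. The sequences come from RefSeq (GRCm38.p6), and each was found once, base for base, in the mm9 genome, at chr10:79516060-79516359 (plus strand) for Gpx4, chr13:113836547-113836846 (minus strand) for Gpx8 and chr3:107820842-107821141 (minus strand) for Gstm1. Where several start sites are listed, the one nearest to the start of the annotated transcript was taken. Capitals mark CCAAT and GGGCGG on either strand.
Gpx4: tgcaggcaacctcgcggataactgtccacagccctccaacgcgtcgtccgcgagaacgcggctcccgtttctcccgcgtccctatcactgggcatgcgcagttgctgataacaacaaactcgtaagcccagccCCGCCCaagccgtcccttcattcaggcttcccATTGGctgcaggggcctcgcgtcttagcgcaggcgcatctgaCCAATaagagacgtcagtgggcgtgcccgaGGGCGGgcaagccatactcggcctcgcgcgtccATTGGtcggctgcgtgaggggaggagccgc
Gpx8: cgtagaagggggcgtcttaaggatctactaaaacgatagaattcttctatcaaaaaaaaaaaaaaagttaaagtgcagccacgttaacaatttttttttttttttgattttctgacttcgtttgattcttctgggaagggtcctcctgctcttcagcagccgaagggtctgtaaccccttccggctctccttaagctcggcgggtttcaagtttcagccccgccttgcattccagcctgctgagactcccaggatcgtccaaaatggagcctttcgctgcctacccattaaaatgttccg
Gstm1: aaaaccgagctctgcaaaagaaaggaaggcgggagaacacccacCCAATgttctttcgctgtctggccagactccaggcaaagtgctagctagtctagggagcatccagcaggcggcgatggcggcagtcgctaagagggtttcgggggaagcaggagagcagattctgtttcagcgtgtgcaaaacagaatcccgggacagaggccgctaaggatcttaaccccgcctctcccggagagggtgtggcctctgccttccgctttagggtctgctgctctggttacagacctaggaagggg
The motifs searched on both strands were TGACNNNGC, the core of the antioxidant response element, CCAAT, the CCAAT box, and GGGCGG, the GC box. The Gpx4 window held 3 CCAAT and 2 GGGCGG matches and was 64.3% G and C. The Gstm1 window held 1 CCAAT match and the Gpx8 window none of the motifs. TGACNNNGC was in none of the windows shown and in 12.4% of 32851 RefSeq promoters of that length, CCAAT in 37.4% and GGGCGG in 35.7%. These matches describe letters and carry no statement on binding.

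The second question was which genes changed with spaceflight. No member passed an adjusted p of 0.05 in Space against Ground with edgeR's quasi-likelihood test, where 6.32% of 20473 genes did. Neither DESeq2's Wald test nor edgeR's exact test called a member, where they called 12.2% and 8.78% of all genes. Gsto1 was the 1 member of 10 with an unadjusted p under 0.05, against 18.9% of all genes. With matched pairs as a block this 1 member was Gpx4 (log2 fold change -0.51, SE 0.19, adjusted p = 0.155) and Gsto1 was not under it (adjusted p = 0.225), where 23.2% of all genes were, and edgeR's exact test gave 0 members. No member was 2-fold lower or higher with an unadjusted p under 0.05, against 7.97% of all genes in the lower direction. The median log2 fold change was -0.15 over the 10 members and 0.05 over all genes.

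Gsto1, the omega-class transferase, which also reduces dehydroascorbate, was at 54.9 CPM (D1) and 66.8 CPM (D5) in R9wt on the ground, and at 44.7 CPM (D1) and 43.9 CPM (D5) in R9del. In space its levels were 31.3 CPM (D1) and 38.4 CPM (D5) in R9wt, and 36.3 CPM (D1) and 39.9 CPM (D5) in R9del. Every Space library was below every Ground library, as were 9.37% of all genes. The log2 fold change was -0.49 (SE 0.21, adjusted p = 0.236 by edgeR's quasi-likelihood test). In this comparison Sox2 (log2 fold change -0.94, adjusted p = 0.0317), Esrrb (1.20, adjusted p = 0.00635), Sox17 (-3.88, adjusted p = 0.0187) and Cdx2 (-2.99, adjusted p = 0.0329) passed among the markers of the 6 lists, and all 6 summed levels overlapped between Space and Ground. Their part in the Gsto1 values was not tested.

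Gpx4 was lower in space in 4 of 4 matched pairs, by 1.17- to 1.83-fold, with a log2 fold change of -0.55 (SE 0.43). With offsets for GC content the difference was 0.31, so its direction in space rests on that choice. With each library left out, the log2 fold change of Gpx4 ranged from -0.84 (without Space_R9wt_D5) to -0.10 (without Ground_R9wt_D5). Gstm1 was also lower in 4 of 4 pairs, by 1.05- to 1.17-fold. Mgst1 was lower by 2.48- and 1.70-fold in the R9wt pairs and within 1.06-fold in the R9del pairs. Gpx3 was higher in 3 of 4 pairs, the largest being 2.26-fold in R9del at D1.

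Gpx1, the cytosolic and mitochondrial peroxidase that removes hydrogen peroxide, differed between space and ground in opposite directions in the 2 genotypes. In R9wt it was at 372 CPM in Ground_R9wt_D1 and 109 CPM in Space_R9wt_D1, and at 431 CPM in Ground_R9wt_D5 and 189 CPM in Space_R9wt_D5. In R9del it was at 209 CPM in Ground_R9del_D1 and 319 CPM in Space_R9del_D1, and at 418 CPM in Ground_R9del_D5 and 452 CPM in Space_R9del_D5. Space was 3.41- and 2.29-fold lower in R9wt, and 1.53- and 1.08-fold higher in R9del. The R9wt space libraries were the 2 lowest of the 8. For Space against Ground in R9wt, the sum of 9 stem cell markers was 4425 against 8015 CPM (D1) and 5115 against 7132 CPM (D5). In R9del it was 5075 against 5234 CPM (D1) and 6005 against 5736 CPM (D5). The markers did not move as one. In R9wt at D5, Dppa5a alone was at 2012 CPM in space against 4602 CPM on the ground. In that pair Nanog (643 against 236 CPM), Tdgf1 (747 against 202 CPM) and Esrrb (91.0 against 47.7 CPM) were higher in space, and the rest were lower. No other marker sum was lower in space in both R9wt pairs. The part of these markers in the Gpx1 values was not tested.

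The interaction of location and genotype for Gpx1 was 1.82 on the log2 scale (SE 0.37) with day as a covariate. Its adjusted p was 1 in edgeR's quasi-likelihood test, which called 0% of 22561 genes, and 3.12% had an unadjusted p under 0.05, Gpx1 being the only member among them. DESeq2's Wald test gave an adjusted p of 0.0499 for Gpx1, the only member it called, and called 0.157% of all genes.

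**Figure D3:**
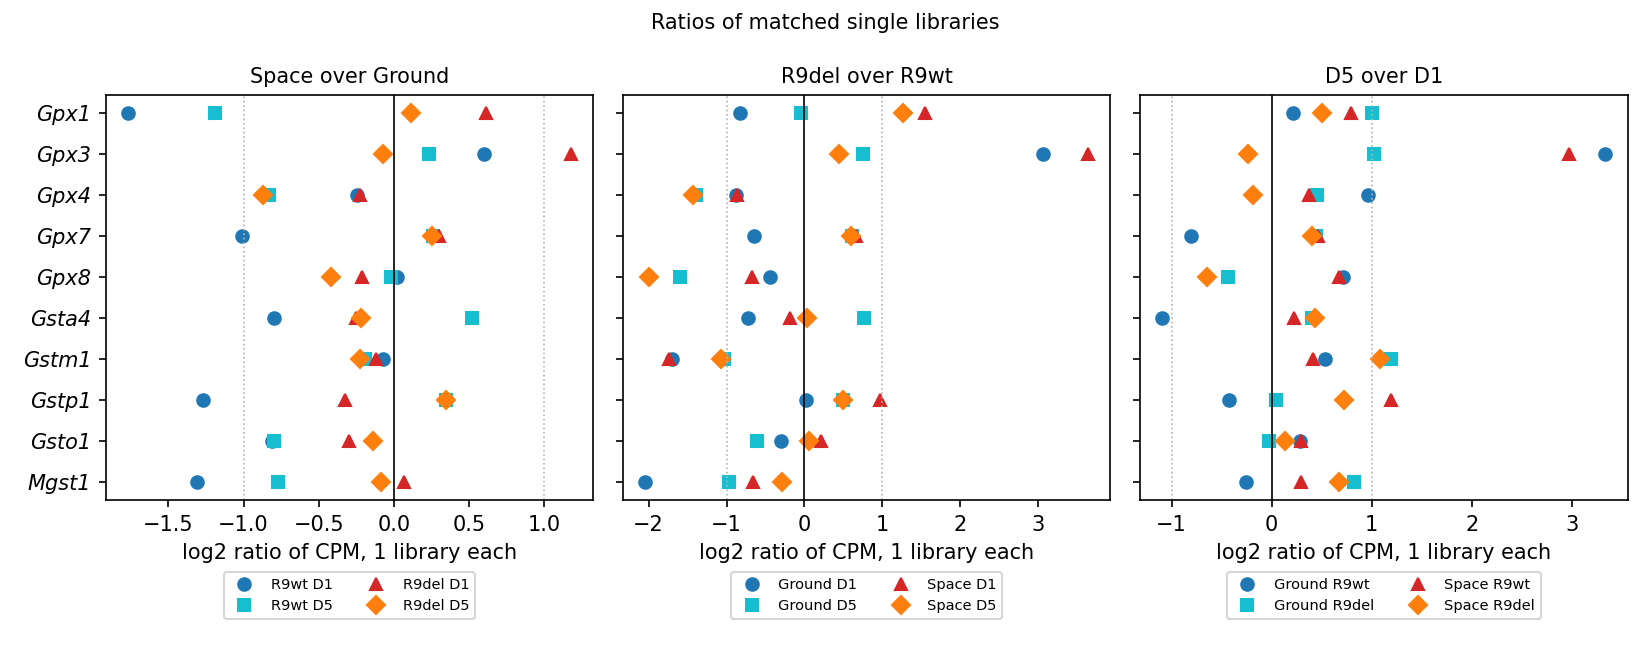
Log2 ratios of TMM-scaled CPM (horizontal axes) between matched single libraries, 4 pairs for each of the 3 conditions, with dotted lines at a 2-fold difference and no replicates behind any point. The Gpx1 ratios of Space over Ground lie at -1.77 and -1.19 in R9wt and at 0.61 and 0.11 in R9del, and those of Gpx3 for R9del over R9wt at 3.07 and 3.64 for D1 and 0.75 and 0.44 for D5.

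Single libraries were also compared, without a test because each condition has 1 library, among the 17597 genes that reached 1 CPM in any library. Space_R9wt_D1 was 2-fold or more lower than Ground_R9wt_D1 for Gpx1, Gpx7, Gstp1 and Mgst1, 4 of 10 members, where 34% of all genes differed 2-fold either way. At D5 in R9wt only Gpx1 did (36.1% of all genes). In R9del, Gpx3 was the 1 member at D1 (21.1% of all genes), and 0 members were past 2-fold at D5 (22.9%). For R9del against R9wt, 3 members were past 2-fold in Ground D1 (22.7% of all genes), 3 in Ground D5 (31.5%), 3 in Space D1 (34.3%) and 4 in Space D5 (25.3%). Gstm1 was the only member past 2-fold in all 4 of these pairs, lower in R9del each time. The share of all genes past 2-fold in all 4 pairs is not given here.

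The third question was the effect of culture duration. No member passed an adjusted p of 0.05 in D5 against D1 with edgeR's quasi-likelihood test, which called 0% of 20473 genes, although 885 genes had an unadjusted p under 0.05. DESeq2's Wald test called 90 genes and edgeR's exact test 34, and neither called a member. By the study's thresholds 2.35% of genes were higher at D5 and 0 members. With matched pairs as a block Gpx3 passed them (2.81% of genes higher). The members' median log2 fold change was 0.31, with 9 of 10 above 0, against a median of -0.03 and 47.5% above 0 over all genes.

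Gpx1 and Gstm1 were higher at D5 in 4 of 4 matched pairs, Gpx1 by 1.16- to 2.00-fold and Gstm1 by 1.33- to 2.29-fold. Gpx3 was higher at D5 by 10.1- and 7.84-fold in R9wt and by 2.03-fold in Ground R9del, and 1.18-fold lower in Space R9del. Its log2 fold change was 0.87 (SE 0.78), 1.78 with the matched pairs as a block, and from 0.51 (without Ground_R9wt_D1) to 1.92 (without Space_R9del_D1) with each library left out. For Gpx8 the 2 R9wt pairs went up (1.64- and 1.60-fold) and the 2 R9del pairs down (1.36- and 1.57-fold).

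In single libraries, D5 was past 2-fold of D1 for 2 members in Ground R9wt (29.1% of all genes), 2 in Ground R9del (12.7%), 2 in Space R9wt (27.6%) and 1 in Space R9del (14.4%). No marker of the 6 lists passed an adjusted p of 0.05 in D5 against D1, but 3 of the summed levels did not overlap between the days. The summed level of 9 primitive endoderm markers was 108 to 363 CPM in the D5 libraries and 22.9 to 88.2 CPM in the D1 libraries, with all 9 higher on average at D5. The sum of 6 trophoblast markers was 414 to 2507 CPM at D5 and 160 to 283 CPM at D1, with 5 of 6 higher. Krt8 and Krt18 held most of that sum in every library. The sum of 11 fibroblast markers was 35.5 to 93.5 CPM at D5 and 28.2 to 32.9 CPM at D1, with 9 of 11 higher. The other sums overlapped: 3 neural markers gave 27.7 to 78.5 CPM at D5 and 54.5 to 81.8 CPM at D1, with 0 of 3 higher at D5, 5 mesendoderm markers 7.43 to 33.4 against 6.75 to 16.6 CPM, and 9 stem cell markers 5115 to 7132 against 4425 to 8015 CPM. Their part in the values of Gpx3, Gstm1 and the other members at D5 was not tested.

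Other genes of glutathione metabolism were described from 7 lists of 65 genes, of which 62 passed the filter on low counts. In Space against Ground 4 of 62 (6.45%) passed an adjusted p of 0.05, all lower in space, a share near the 6.32% of all genes, of which 1051 of 1294 were lower. In R9del against R9wt and in D5 against D1 0 of 62 did with edgeR's quasi-likelihood test.

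The 4 genes were Glrx5, Trnau1ap, Gstcd and Sephs2. Glrx5, a mitochondrial glutaredoxin of iron-sulfur cluster assembly, fell by 3.61 on the log2 scale in space (SE 0.59, adjusted p = 0.00515). Its levels were 9.64 to 72.8 CPM in the Ground libraries and 1.92 to 3.61 CPM in the Space libraries. Trnau1ap, which binds the selenocysteine transfer RNA, fell by 2.46 (SE 0.26, adjusted p = 0.000324), from 40.1 CPM or more on the ground to 9.76 CPM or less in space. Sephs2, which makes the selenium donor for selenocysteine, fell by 1.70 (SE 0.32, adjusted p = 0.0114), and Gstcd, a gene with a transferase-like domain, fell by 1.88 (SE 0.27, adjusted p = 0.00229). In the same comparison the 3 selenocysteine peroxidases did not pass the test. Of the 11 genes of selenoprotein synthesis, 2 fell and 9 did not pass, and their median log2 fold change was -0.01.

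The most abundant genes of the lists did not pass the test in any comparison. They included Adh5 (481 to 749 CPM over the 8 libraries) and Glo1 (447 to 763 CPM), which clear glutathione adducts of formaldehyde and methylglyoxal, Glrx3 (387 to 766 CPM), Slc3a2 (261 to 449 CPM), a subunit of the cystine transporter, Idh1 (106 to 253 CPM), Glrx (15.5 to 72.4 CPM), Sars (92.3 to 151 CPM), Sephs1 (44.6 to 133 CPM), Trp53 (115 to 261 CPM) and Mafg (103 to 275 CPM). Among the other peroxidases Gpx2 lay between 4.55 and 37.7 CPM and Gpx6 between 1.20 and 12.1 CPM. Gstz1 ranged from 26.3 to 45.8 CPM.

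The other members of the mu and theta classes were set beside Gstm1, a choice made after their values were seen. Among the 22 other transferases, of which 20 were tested, 5 (25%) were 2-fold lower in R9del with an unadjusted p under 0.05 and 1 was higher, against 7.39% and 6.37% of all genes. Gstm3, Gstm5, Gstm7, Gstt1 and Gstt2 were the lower ones, and Gsta3 was the higher, with no overlap between its groups. By the same thresholds 4 of the 20 (20%) were higher at D5, against 2.35% of all genes: Gstm2, Gstm5, Gstm6 and Gsta2, the last at 0.436 CPM or less in all libraries. Gstm2 was at 15.3 to 54.5 CPM at D5 and 7.79 to 11.8 CPM at D1 (log2 fold change 1.88, SE 0.41, adjusted p = 0.887 by edgeR's quasi-likelihood test). Gstm2, Gstm6, Gsta2 and Gstp2 did not overlap between the days, as 1.68% of all genes did not with D5 higher. Gstm3 was at 8.57 and 49.6 CPM in the R9wt ground libraries and at 17.3 and 47.4 CPM in the R9wt space libraries, with D1 first. In R9del it was at 2.15 and 11.4 CPM on the ground and at 3.62 and 4.68 CPM in space. The genotypes overlapped, and the log2 fold change was -2.49 (SE 0.66, adjusted p = 0.0823 by edgeR's quasi-likelihood test). Gstt2 was at 30.4, 98.9, 63.6 and 22.7 CPM in Ground_R9wt_D1, Ground_R9wt_D5, Space_R9wt_D1 and Space_R9wt_D5, and at 8.23 to 17.4 CPM in R9del, so its groups did not overlap (log2 fold change -2.06, SE 0.49, adjusted p = 0.0638). Gstt1 was likewise lower in R9del without overlap (log2 fold change -1.50, SE 0.38, adjusted p = 0.0709), and Gstt3 did not, at 12.2 to 22.5 CPM in all libraries. The mu-class genes lie in a row on chromosome 3 and share sequence, with coding identities to Gstm1 of 86.0% for Gstm2, 80.2% for Gstm4 and 82.6% for Gstm7.

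**Figure D4:**
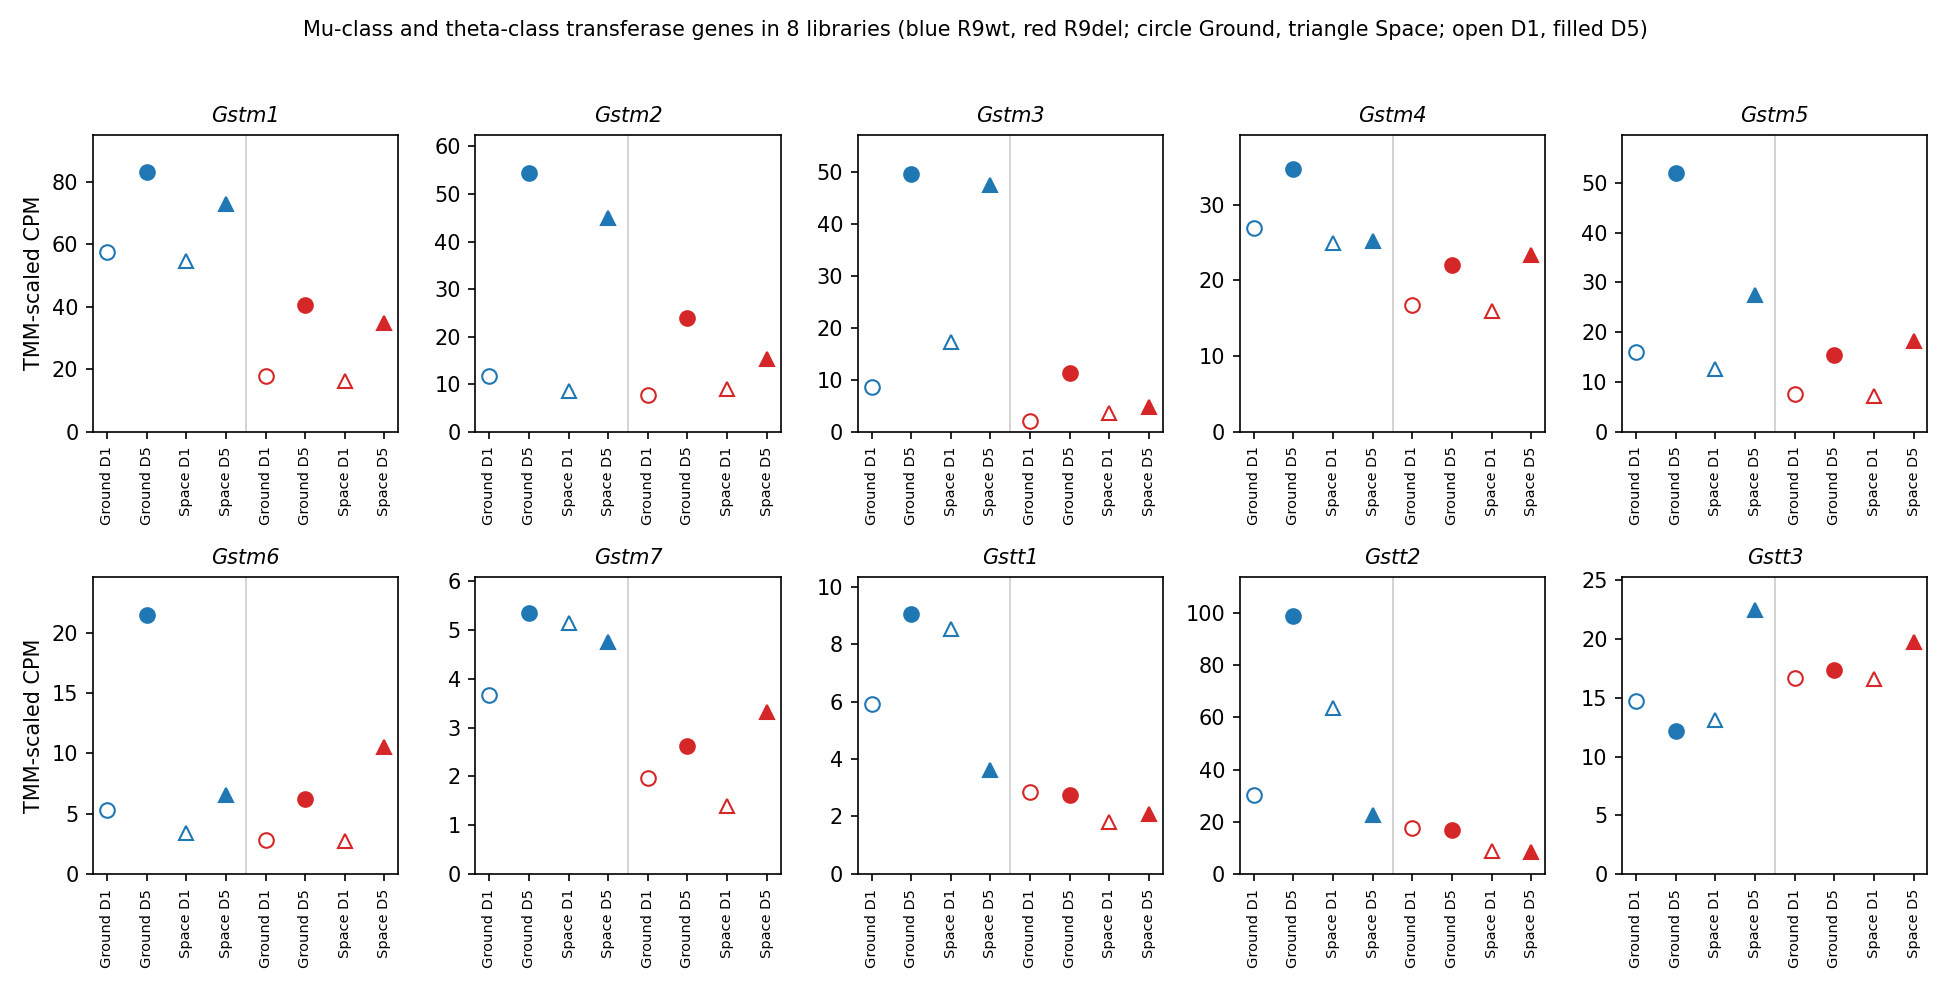
TMM-scaled CPM (vertical axes, from 0) of the mu-class genes Gstm1 to Gstm7 and the theta-class genes Gstt1 to Gstt3 in the 8 libraries, with 1 point for each library. For Gstm1, Gstm4, Gstm7, Gstt1 and Gstt2 every R9del point (red) lies below every R9wt point (blue), as in 7.19% of all genes. Gstt2 lies at 8.23 to 17.4 CPM in R9del and 22.7 to 98.9 CPM in R9wt.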

How the data were processed

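The authors sequenced mRNA libraries (paired-end reads) and, per the labels, aligned reads to the mm9 genome with TopHat2 2.0.9. The deposited table holds the authors' whole-number read counts per Ensembl gene, without normalization. The counting program, annotation and strand setting are not given in the sources used here. Members and lists were chosen with earlier results of these data known.

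From the counts, CPM used edgeR's TMM factors (log2 values with a prior count of 2). Group comparisons used edgeR 4.0.16's quasi-likelihood test on all genes kept by filterByExpr (minimum count 10), with Benjamini-Hochberg adjustment over all of them. The two-sided exact permutation test is not quoted, since groups that do not overlap fix its p. The fit was checked on simulated counts with known changes. These had the same dispersion for every gene and no effect of the other conditions. The check therefore does not cover groups pooled over those conditions. DESeq2 1.42.0 was an alternative, as were other scalings, no filter, edgeR's exact test, additive covariates, GC offsets, matched pairs as a block and each library left out. Gene positions came from GENCODE for mm9, which holds 64.6% of identifiers and 97.1% of counts. Named genes were all members, Rad9a and list genes with an adjusted p under 0.05. They also included the 2 genes of highest mean CPM in each list and the 3 most like Gpx3. Other mu-class and theta-class genes, Gsta2, Gsta3, Gstp2 and the markers named in the report fall outside this rule and were named after their values were seen.

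Libraries matched on the other conditions deviated together from their group means, with correlations from 0.329 to 0.694 across genes. The pairs come from the condition labels, and a block therefore removes the effects of the other 2 conditions.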

Additional observations from a re-analysis of the deposited data

Results flagged for a closer look

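Over 60 groups of 4 libraries (10 genes in 6 groups), 2 values stood apart from the other 3 by a gap that Dixon's test sets as unusual, a limit that chance passes in about 1 in 20 groups, or 3 of 60. Gstp1 was at 78.6 CPM in Ground_R9wt_D5, where the other Ground libraries lay between 106 and 111 CPM. Gpx1 was at 189 CPM in Space_R9wt_D5, where the other D5 libraries lay between 418 and 452 CPM.

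In 6 of 60 cases searched (10%, against 8.58% of the same cases over all genes) the pairs of one kind of library went up and the pairs of the other kind went down. The mean space minus ground log2 ratio of Gpx1 was higher in R9del than in R9wt by 1.84, and the same libraries seen as R9del minus R9wt gave -1.84 for Ground relative to Space; the interaction test is in the report. For Gstp1 the space minus ground ratio at D1 was below that at D5 by a difference of -1.15. For Gsto1 the R9del minus R9wt ratio on the ground was below that in space by a difference of -0.59, and the location by genotype test of that gene had an adjusted p of 1 with edgeR. For Gsta4 the R9del minus R9wt ratio at D1 relative to D5 was -0.85. For Gpx8 the D5 minus D1 ratio in R9del relative to R9wt was -1.24. The differences of Gstp1, Gsta4 and Gpx8 were not tested.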

How the results depend on the processing

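In R9del against R9wt the count of members with an adjusted p under 0.05 went from 0 to 3 with DESeq2's Wald test, 3 with edgeR's exact test, 2 with the matched pairs as a replicate block and 2 with additive covariates, and the count of list genes from 0 to 6, 3, 6 and 6 of 62 (9.68%, 4.84%, 9.68% and 9.68%), where these fits called 10%, 7.13%, 8.46% and 7.2% of all genes. With each library left out the list count was 0 to 1, and the count of members past the study's thresholds was 2 (without Ground_R9wt_D5) to 5 (without Space_R9wt_D5). In Space against Ground 7 of 60 list genes passed with DESeq2's Wald test (11.7%, against 12.2% of all genes) and 10 of 62 with additive covariates (16.1%, against 10.6%), in place of 4. In D5 against D1 the members past the study's thresholds went from 0 to 1 (Gpx3) with the block of pairs, to 1 with additive covariates and to 0 to 1 with each library left out, and 1 of 62 list genes (1.61%) passed with DESeq2's or edgeR's exact test, against 0.442% and 0.166% of all genes. For the interaction, DESeq2's Wald test called 1 member in place of 0, and the members past the study's thresholds were 1 to 2 with a library left out. In the pairs of single libraries, with 40 member values for each condition, a fold threshold of 1.5 in place of 2 gave 14, 28 and 17 values past it for location, genotype and duration, in place of 6, 13 and 7, where 49.7%, 49.2% and 39.4% of all gene values were past 1.5-fold. By the study's thresholds the replicate block put Gpx3 in place of Mgst1 in R9del against R9wt (log2 1.99 and -0.97). At an unadjusted p under 0.05 it put Gpx4 in place of Gsto1 in Space against Ground. There it added Gpx3 and Gstp1 in R9del against R9wt and Gpx1, Gpx3 and Gstm1 in D5 against D1. In these comparisons the block had 1, 6 and 3 of 10 members under that p, and 4752, 5915 and 1844 of 20473 genes. By an adjusted p or the study's thresholds it changed no member call beyond those given here.

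Of 493 recomputed member values, 457 kept direction and side of the threshold and 25 turned direction, each of a value that was not called. Space against Ground turned to 0.31 for Gpx4 with GC offsets, and for Gpx7 to -0.037 without a filter, -0.0073 with the block and -0.042 with additive covariates. R9del against R9wt turned to 0.0052 for Gsta4 with library size alone. With each library left out, Space against Ground ranged from -0.20 to 0.12 for Gpx7, -0.48 to 0.29 for Gpx8, -0.45 to 0.23 for Gstm1 and -0.37 to 0.12 for Gstp1. R9del against R9wt ranged from -0.21 to 0.17 for Gsta4. D5 against D1 ranged from -0.065 to 0.29 for Gpx7, -0.15 to 0.21 for Gsta4, -0.042 to 0.32 for Gsto1 and -0.11 to 0.84 for Mgst1. The causes were not tested. At 1 library a condition, spread between cultures of the same condition is not measured, and Mgst1 and Gpx8, the lowest members, rest on the fewest counts.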
